A study of Mus musculus with 6 samples.

Results

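The cytosolic ribosomal protein genes were taken as every gene whose symbol has the form Rpl or Rps followed by a number and at most 1 of the letters a, x or l, together with Rplp0, Rplp1, Rplp2 and Rpsa. This gave 82 genes of the 23574 in the count tables, 50 for the large and 32 for the small ribosomal subunit. RNA had been sequenced from mouse haematopoietic stem cells of strain C57BL/6, with 3 libraries labelled HLF KO, from mice that lack the transcription factor gene Hlf, and 3 labelled WT, from wild-type littermates. Each library was made from 3000 freshly sorted cells that were negative for lineage markers, CD34 and Flt3 and positive for Sca-1 and c-Kit. Age, sex and the part of Hlf that was removed are not stated in these sources. The labels also do not say whether the 3 libraries of a genotype came from separate mice, so a p-value here reflects library-to-library spread that may be partly technical. Xist, the RNA of the inactive X chromosome, had 16730 counts in WT library 3, 19229 in HLF KO library 3 and at most 34 in each of the others. If each library came from a single mouse, library 3 of either genotype had a different donor from the other libraries. The number of mice per library is not stated.

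Ribosomal proteins coat the ribosomal RNA of the small subunit, which reads the mRNA, and of the large subunit, which joins amino acids. Their genes are scattered over the genome, yet the proteins are needed in nearly equal numbers, and most of the mRNAs begin with a terminal oligopyrimidine (TOP) motif through which mTORC1 signalling adjusts their translation. Haematopoietic stem cells are known for a low rate of protein synthesis, and loss of 1 copy of several of these genes causes Diamond-Blackfan anaemia, a failure of red cell production.

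The start-site sequences below are examples from members described in the results. They come from the RefSeq promoter table of build GRCm38.p6, in which 61 of the 82 genes were found with 73 promoters. Each line gives 30 bases, 15 before and 15 after the annotated start of transcription, 5′ to 3′ on the strand of the gene. Capitals mark CTTTC or CTTTT, the core of many TOP motifs. Rpl12, Rpl27a, Rplp2, Rps15a and Rps12 hold at least 1, and Rps2, Rpsa, Rpl37a and Rps28 do not.
Rpl12, chr2:32961697-32961726, plus strand: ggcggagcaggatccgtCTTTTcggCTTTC
Rpl27a, chr7:109519180-109519209, plus strand: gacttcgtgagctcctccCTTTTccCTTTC
Rplp2, chr7:141447636-141447665, plus strand: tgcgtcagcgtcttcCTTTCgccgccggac
Rps15a, chr7:118116133-118116162, minus strand: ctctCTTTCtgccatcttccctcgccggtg
Rps12, chr10:23787195-23787224, minus strand: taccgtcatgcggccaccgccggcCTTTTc
Rps2, chr17:24720048-24720077, plus strand: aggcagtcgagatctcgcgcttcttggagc
Rpsa, chr9:120127751-120127780, plus strand: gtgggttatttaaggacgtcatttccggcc
Rpl37a, chr1:72711245-72711274, plus strand: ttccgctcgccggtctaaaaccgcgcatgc
Rps28, chr17:33824548-33824577, minus strand: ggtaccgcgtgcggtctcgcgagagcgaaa

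In this 30-base window, read on the strand of the gene, CTTTC or CTTTT was present in 21 of the 73 member promoters (28.8%), against 6.96% of all 32851 promoters in the table. It was found in 15 of 45 promoters of large subunit genes and in 6 of 28 of small subunit genes. The letters CCGGAA, the core of the site for ETS factors such as GABP, were searched on both strands of the full 300 bases, from 250 before to 50 after the start. They were present in 34 of 73 member promoters (46.6%) and in 14.9% of all promoters. AAGATGGC, part of the site for YY1, was found in 7 of 73 member promoters (9.59%) and in 2.75% of all, again on both strands. These are matches of letters in windows around annotated starts, and no binding was measured. A missing match means only that these letters are not in the window.

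The libraries held 8346335 to 11998296 counts, and every HLF KO library was deeper than every WT library. Hlf stood at 1382 ± 274 CPM (counts scaled to a common library size, with a correction for composition) in WT and at 34.4 ± 5.302 CPM in HLF KO (SD, n = 3 each), a log2 fold change of -5.33 (SE 0.26, edgeR adjusted p = 1.9e-06). Of the sort markers, Kit had 1 count in total, Ly6a (Sca-1) 0, Cd34 24 and Flt3 985. The first 3 of these have several listed transcripts, as do the thinly counted ribosomal protein genes described next, though other genes with several, such as Mecom (8822 counts), were well counted. Markers of other cells were not equal between libraries. A list of 10 granulocyte-monocyte markers, of which S100a9 was at 0, summed to 624 to 3363 CPM in WT and 323 to 489.5 CPM in HLF KO, with WT library 3 the highest. A list of 10 B-cell and plasma cell markers, with 0 of them at 0, summed to 760 to 5609 CPM in WT, again with WT library 3 the highest, and to 140 to 300.1 CPM in HLF KO. Both sums were thus lower in every HLF KO library than in any WT library. An erythroid list of 10, with Hba-a1 and Hbb-b1 at 0, summed to 722 to 883 CPM in WT and 889 to 1175 CPM in HLF KO. Lists for T cells (78.2 to 181.6 CPM over all 6 libraries, Cd8a and Lck at 0) and for endothelial or stromal cells (56.7 to 248.5 CPM, 0 genes at 0) overlapped between genotypes. The part of these markers in the results below was not tested.

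The counts of ribosomal protein genes differed with the number of RefSeq transcripts that the tables list for them. For the 71 genes with 1 listed transcript, the median count summed over the 6 libraries was 128360. The 11 genes with several listed transcripts had a median of 14, and none had more than 263. This class holds Rpl19, Rpl22, Rpl30, Rpl31, Rpl34, Rpl35a, Rpl38, Rpl3l, Rps24, Rps27 and Rps27a, most of which encode core proteins of the ribosome, so their low counts are not read as low expression. Among genes with 1 listed transcript, Rpl10l, Rpl26 and Rpl39l were at 0 in every library, and Rpl32l had 122 counts in total. Rpl26 also encodes a core protein. The other members at 0 were Rpl38, Rpl3l and Rps27a. For every gene at 0, the count allows up to 3 reads per library, and this limit covers counting error only.

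**Figure D1:**
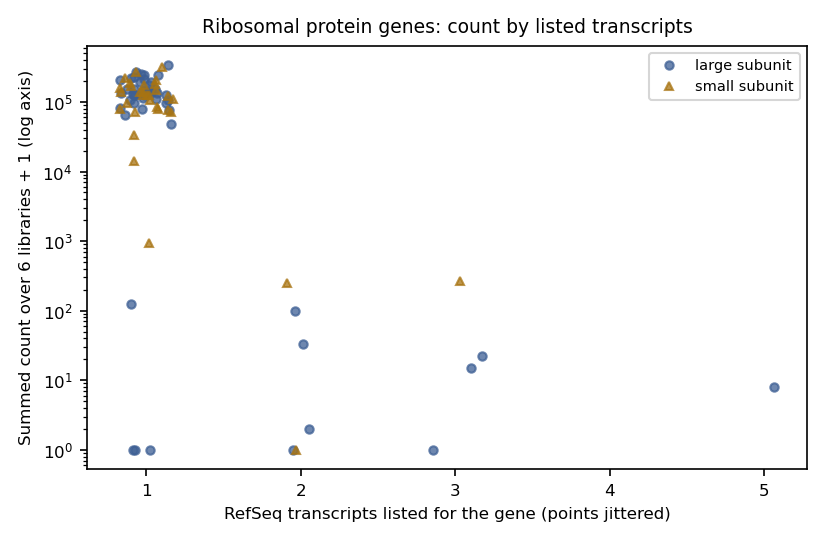
Each point is 1 of the 82 ribosomal protein genes. The horizontal axis is the number of RefSeq transcripts listed for the gene (points spread sideways at random for visibility), and the vertical axis is its count summed over the 6 libraries plus 1, on a log axis. The 11 genes with several transcripts lie at or under 263 counts, while genes with 1 transcript have a median of 128360.

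A filter on low counts left 71 of the 82 members for testing, 40 of the large and 31 of the small subunit. The untested ones were Rpl10l, Rpl19, Rpl22, Rpl26, Rpl30, Rpl31, Rpl35a, Rpl38, Rpl39l, Rpl3l and Rps27a. Of those tested, 66 had a mean of at least 100 CPM, and these carry the description that follows. The other 5 were Rpl32l, Rpl34, Rps24, Rps27 and Rps4l. They were thinly counted, with Rps24 at 161, 7 and 4 counts in WT libraries 1, 2 and 3 and at 14, 59 and 18 in HLF KO libraries 1, 2 and 3. Many ribosomal protein genes also have near-identical processed pseudogenes, and the labels do not say how reads shared with them were counted, or whether strand was used, so levels of single members are uncertain to that extent.

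Per kilobase of mRNA, levels of the 66 members differed widely within each subunit. Among large subunit genes the highest means over the 6 libraries were those of Rplp2 (9746 CPM per kilobase), Rpl32 (8771) and Rpl41 (8439.9), and the lowest of the well-counted ones those of Rpl35 (852), Rpl13a (1046) and Rpl5 (1226). Among small subunit genes Rps15a (5862) and Rps4x (5415) were among the highest. Rps27l, Rps20 and Rps3 were lowest, at 418, 812 and 845 CPM per kilobase. Rps27l is a p53-induced relative of Rps27. Lengths came from the shortest GENCODE transcript with the longest coding sequence. This is 3706 bases long for Rps20, 2045 for Rpl5 and 1908 for Rps3, so their low values depend on the transcript chosen.

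Ribosomal protein genes together held about the same share of the counts in both genotypes. The share was 14.4%, 17.0% and 16.6% in WT libraries 1, 2 and 3 and 15.05%, 14.2% and 18.7% in HLF KO libraries 1, 2 and 3. Both the lowest and the highest share were thus in HLF KO libraries. The means were 15.97% ± 1.40 in WT and 15.99% ± 2.39 in HLF KO (SD, n = 3), a difference of 0.021 percentage points, far below the spread within either genotype. With 1 library left out at a time it ranged from -1.34 points (without HLF KO library 3) to 0.91 points (without HLF KO library 2), so single libraries set its sign. Large subunit genes held 9.70% ± 0.93 of counts in WT and 9.67% ± 1.75 in HLF KO, and small subunit genes 6.27% ± 0.56 and 6.32% ± 0.64. As these are bulk libraries, a lower share of cells of a type and less RNA per cell cannot be told apart.

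The ratio of large to small subunit counts was 1.54, 1.65 and 1.46 in WT libraries 1, 2 and 3 and 1.47, 1.44 and 1.66 in HLF KO libraries 1, 2 and 3. The genotypes overlapped, with means of 1.55 ± 0.097 and 1.52 ± 0.12 (SD, n = 3). WT library 2 and HLF KO library 3 had the highest ratios of their genotypes and also the highest ribosomal protein shares.

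**Figure D2:**
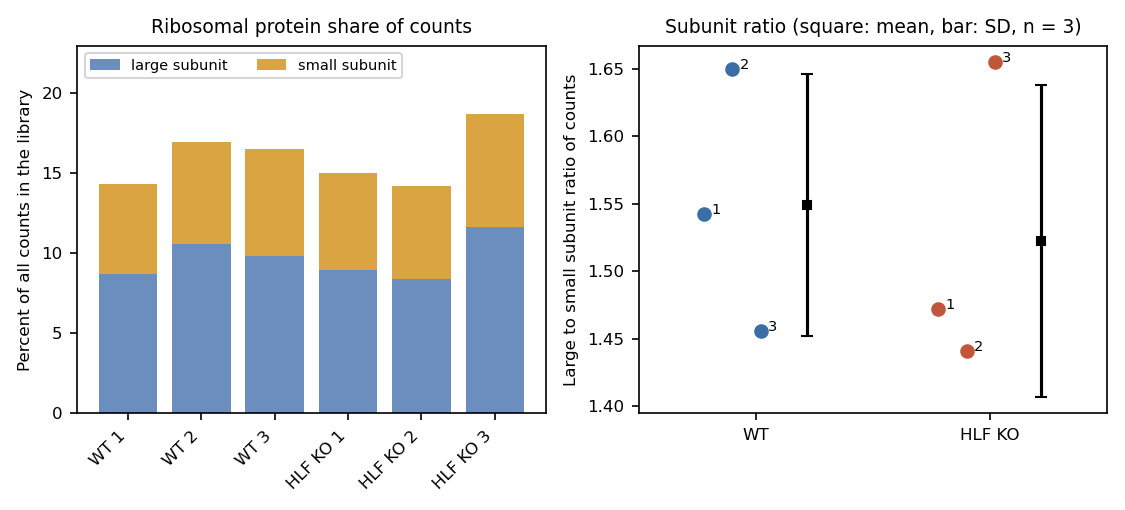
Left, the share of all counts that fell on large and small subunit genes in each of the 6 libraries, as stacked bars in percent. Right, the ratio of large to small subunit counts, 1 point per library with its number, and beside it the mean with the SD (n = 3). Shares run from 14.2% to 18.7%, both in HLF KO, and the ratios of the genotypes overlap. The axis of the ratio does not start at 0.

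Compared gene by gene, no ribosomal protein gene passed edgeR's quasi-likelihood test at an adjusted p under 0.05, whether of the large subunit (0 of 40 tested) or the small (0 of 31), where 0.0098% of all 10204 genes tested did so, which is Hlf alone. The smallest adjusted p among members was 0.68, for Rps2, and DESeq2 called 0 members as well, where it called 1.09% of 9911 genes. At an unadjusted p under 0.05, 1 member had higher values in HLF KO, where 2.63% of all genes did, and 0 had lower values, where 4.65% did (7.27% in either direction). The DESeq2 count at that level was 0 members. Large subunit genes had 25 positive and 15 negative log2 fold changes with a median of 0.07, and small subunit genes 15 positive and 16 negative with a median of -0.03. Over all genes tested 47.2% were positive and the median was -0.05. The medians of the subunits differed by 0.09.

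The intervals were narrow enough to bound the differences. The standard error of a log2 fold change had a median of 0.20 over the 71 tested members and of 0.59 over all genes. For 63 members the 95% interval lay within a 2-fold change in either direction, and for 28 of them within 1.5-fold. The log2 fold changes of the 66 well-counted members lay between -0.58 (Rpl37a) and 0.43 (Rpl21), with an SD of 0.23. For the 167 other genes with a mean of at least 500 CPM the SD was 0.62. That value is raised by Hlf at -5.33 and rests on a different CPM line, so it is not a like comparison. Within WT the coefficient of variation of the 66 members had a median of 16.8%, and within HLF KO of 14.8%.

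**Figure D3:**
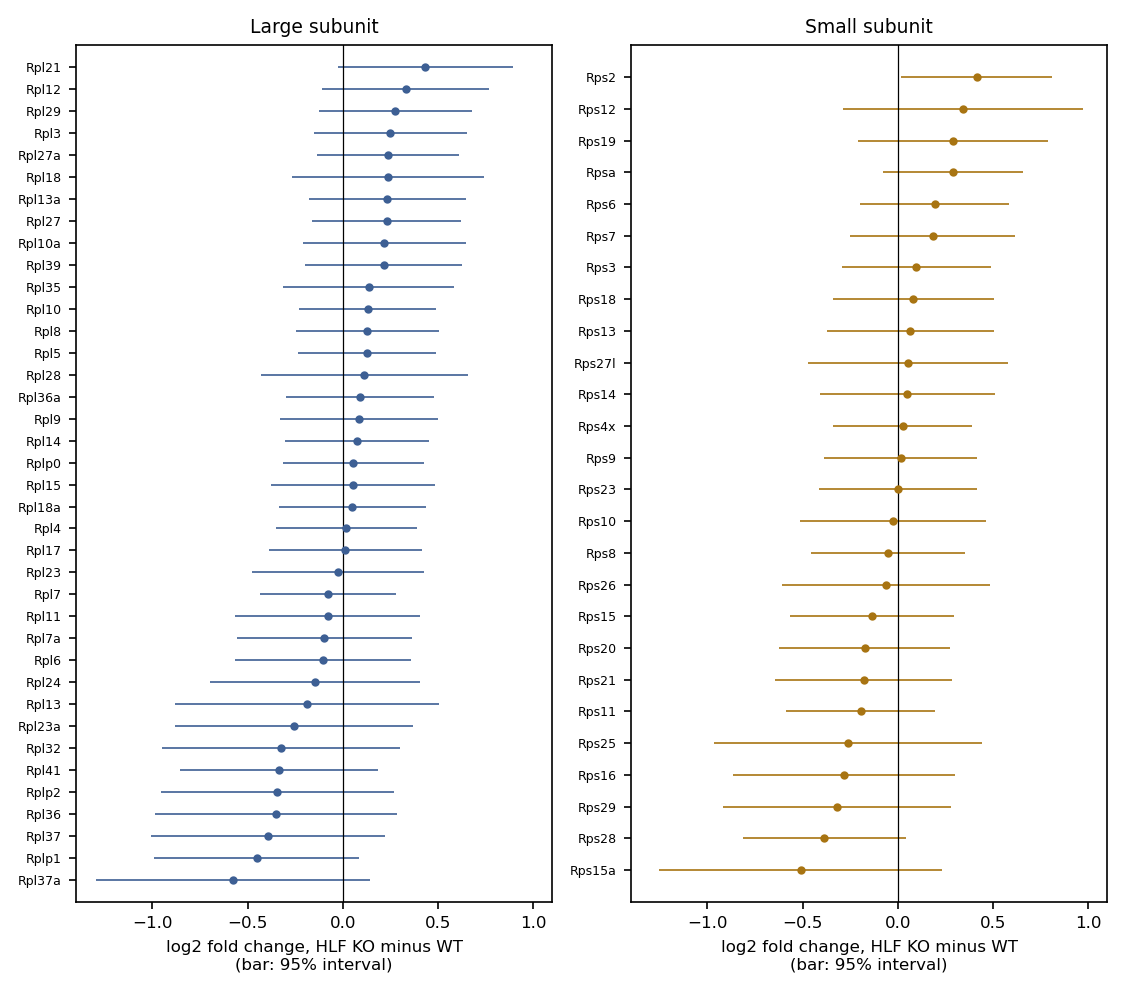
Log2 fold change (HLF KO minus WT) of 64 of the 66 ribosomal protein genes with a mean of at least 100 CPM, large subunit on the left and small on the right, sorted by size. Points are edgeR estimates and bars their 95% intervals. The interval of Rps2 alone leaves out 0, before any adjustment for the number of genes tested.

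Among the 5 members of smallest unadjusted p in each subunit, 6 had higher values in HLF KO, which were Rps2, Rpl21, Rpsa, Rpl12, Rpl29 and Rps19. Rps2 encodes a protein at the mRNA entry of the small subunit. It was counted at 2007, 2408 and 2985 CPM in WT libraries 1, 2 and 3 and at 3146, 3409.9 and 3306 CPM in HLF KO libraries 1, 2 and 3. Every HLF KO library was above every WT library, although WT library 3 came close to HLF KO library 1. On the log2 scale HLF KO minus WT was 0.41 (SE 0.18, 95% interval 0.02 to 0.81, edgeR adjusted p = 0.68), and it ranged from 0.30 to 0.58 with 1 library left out at a time.

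Rpsa, the laminin receptor protein of the small subunit, stood at 1961, 2141 and 2529 CPM in WT and at 2646, 2634 and 2828 CPM in HLF KO. Rpl27a, a large subunit protein, stood at 1289.95, 1478 and 1598 CPM in WT and at 1652, 1771 and 1731 CPM in HLF KO. In both genes all HLF KO libraries were above all WT libraries. Their log2 fold changes were 0.29 (SE 0.17) and 0.24 (SE 0.17), and both intervals include 0. With Rps2 these make 3 of 71 tested members whose genotypes did not overlap with higher values in HLF KO, where 7.52% of all genes did the same. There were 0 with lower values in HLF KO, where 6.85% of all genes did.

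Rpl21 had a log2 fold change of 0.43 (SE 0.21, edgeR adjusted p = 0.69). Its levels were 1518, 2242 and 2632 CPM in WT and 2968, 3061 and 2599.7 CPM in HLF KO, so HLF KO library 3 lay below WT library 3. Rpl12, which anchors the stalk of the large subunit, stood at 0.33 (SE 0.20), Rpl29 at 0.28 (SE 0.18) and Rps19, the gene most often mutated in Diamond-Blackfan anaemia, at 0.29 (SE 0.23). In Rps19 the span within WT, 836 to 1546 CPM, covered that of HLF KO except its highest library (1279 to 1552 CPM). Over the 6 libraries, the members whose log2 CPM followed Rps2 most closely were Rpl27a, Rpl29 and Rpsa (Pearson's r 0.99, 0.98 and 0.98, as a description).

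The other 4, Rps28, Rplp1, Rpl37a and Rps15a, had lower values in HLF KO, and in each of them the genotypes overlapped. Rpl37a, a small zinc-binding protein of the large subunit, stood at 4187, 4911 and 2756 CPM in WT and at 1940.05, 1702 and 4305 CPM in HLF KO. Its HLF KO library 3 was above WT libraries 1 and 3. On the log2 scale the difference was -0.58 (SE 0.33, edgeR adjusted p = 0.72). Rplp1, a protein of the acidic stalk that recruits elongation factors, stood at 4612, 5333 and 3403 CPM in WT and at 2691, 2518 and 4544 CPM in HLF KO. The same library was again the high one among the HLF KO libraries, and the log2 fold change was -0.45 (SE 0.25).

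Rps15a, a small subunit protein, stood at 4267, 6323 and 2636 CPM in WT and at 2738, 1919 and 4629 CPM in HLF KO, with a log2 fold change of -0.51 (SE 0.34). Rps28, which lies near the mRNA exit, was counted at 1729, 1613 and 1486 CPM in WT and at 1025, 1154 and 1519 CPM in HLF KO. Here only HLF KO library 3 reached the WT range, with a difference of -0.38 on the log2 scale (SE 0.20, edgeR adjusted p = 0.69).

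**Figure D4:**
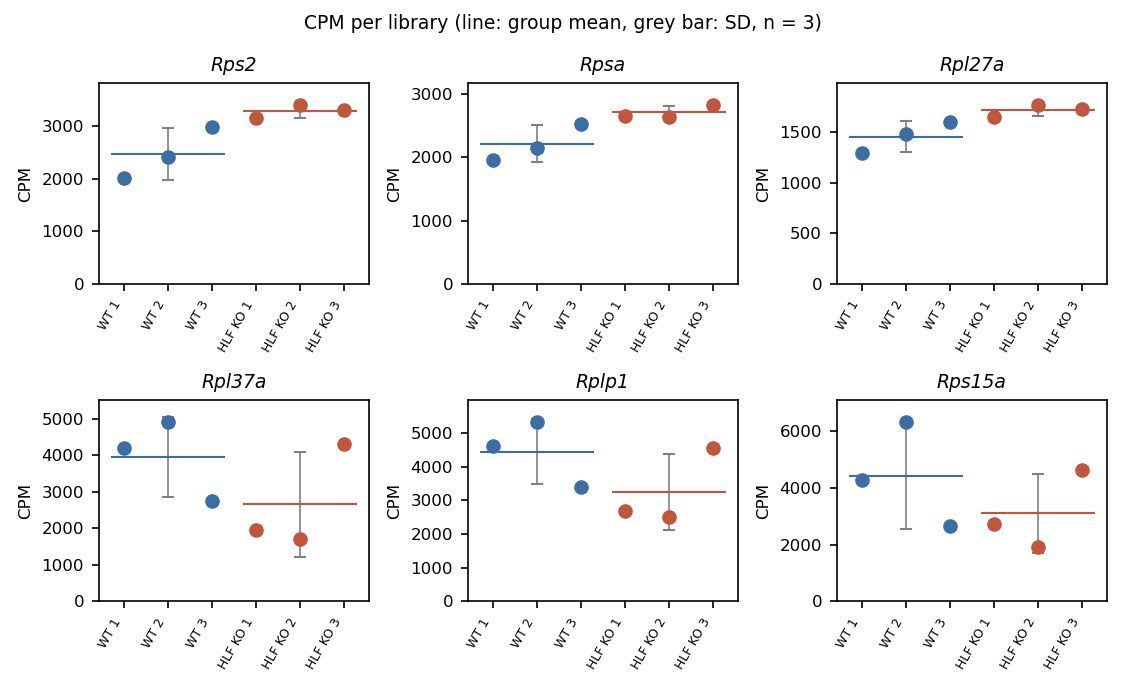
CPM in each library for Rps2, Rpsa and Rpl27a (top), in which every HLF KO library lies above every WT library, and for Rpl37a, Rplp1 and Rps15a (bottom), in which HLF KO library 3 lies far above the other HLF KO libraries. Blue points are WT and red points HLF KO, lines are group means and grey bars the SD (n = 3). All axes start at 0.

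Members also differed between libraries in ways that did not separate all WT from all HLF KO libraries, and these are described by 2 examples. In the first, seen in Rpl37a, levels were high in WT libraries 1 and 2 and HLF KO library 3 and low in HLF KO libraries 1 and 2. Rplp1, Rpl36 and Rplp2 followed Rpl37a most closely (Pearson's r 1.00, 0.99 and 0.99 over the 6 libraries, as a description), and 16 of the other 65 members had r over 0.9 with it. In the other, seen in Rps12, levels were lowest in WT library 1. Rps12, a small subunit protein, stood at 634, 945 and 1548 CPM in WT and at 1352, 1526 and 1083 CPM in HLF KO. In 23 members r with Rpl37a was under 0. A first principal component of the 66 members held 69.2% of their variance between libraries and had positive weights for 42 members. Its library scores were 0.25, 0.48 and -0.17 in WT and -0.40, -0.58 and 0.43 in HLF KO. In libraries 1 and 2 the scores were thus positive in WT and negative in HLF KO. In library 3, the library with abundant Xist, the signs were reversed. The parts of genotype and donor sex in this component were not tested. The second component held 19.6% and set WT library 1 (-0.71) against HLF KO library 3 (0.60).

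HLF KO library 3 was the highest of the 6 libraries for 28 of the 66 members, 21 of the large and 7 of the small subunit, and WT library 3 for 16. HLF KO library 2 was the lowest for 25 and WT library 1 for 22. Neither WT library 3 nor HLF KO library 3 was the lowest for any (0 of 66). The highest library exceeded the lowest by a median of 1.55-fold, from 1.19-fold in Rpl7 to 3.30-fold in Rps15a, and by more than 2-fold in 15 members. Rplp0 (1.23-fold) and Rpl5 (1.25-fold) varied little as well. Members with high weights on the first component had shorter coding sequences (Spearman's rho -0.45 across 66 genes, which are not independent replicates) and higher mean levels (rho 0.42).

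**Figure D5:**
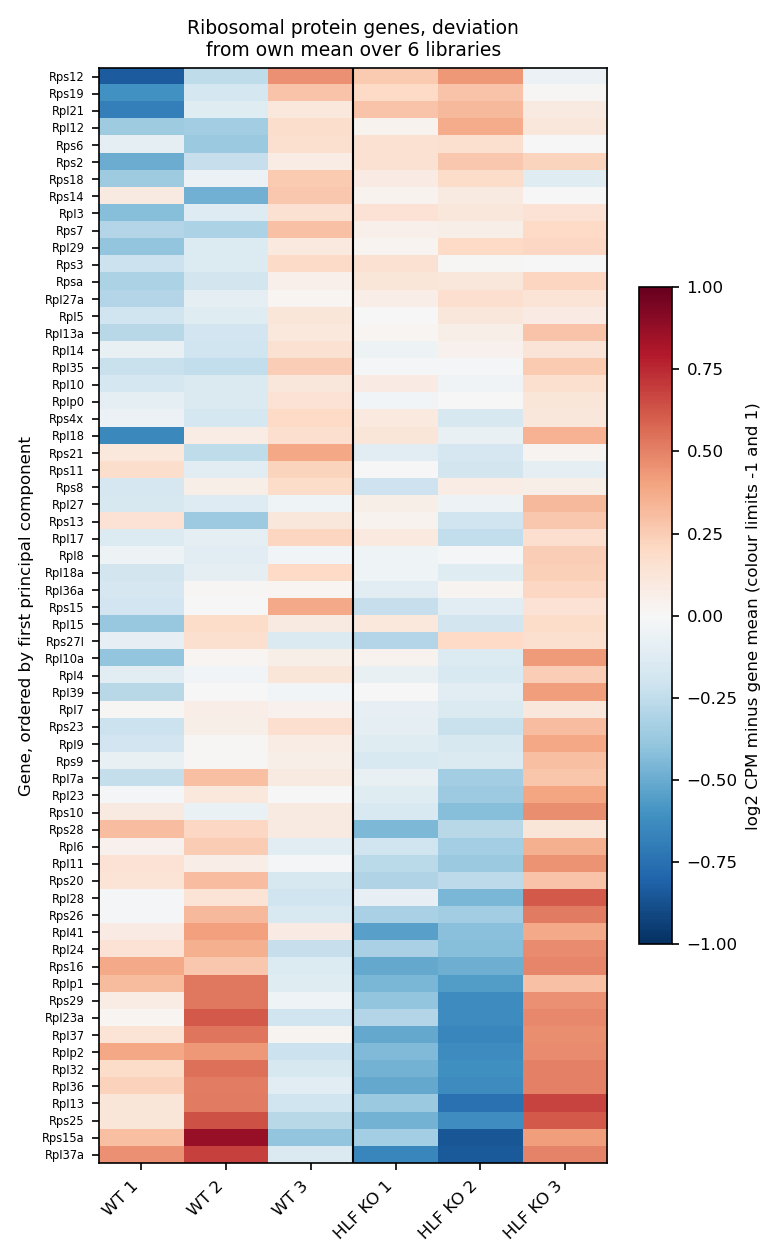
Log2 CPM of 64 of the 66 well-counted ribosomal protein genes in each library, minus each gene's mean over the 6 libraries, ordered by the first principal component. Red is above and blue below the gene's mean, and the line separates WT from HLF KO. Genes at the bottom, such as Rpl37a and Rps15a, are high in WT libraries 1 and 2 and HLF KO library 3. Of the genes near the top, Rps12 is lowest in WT library 1, and Rps6 and Rps14 are lowest in WT library 2.

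Leaving out HLF KO library 3 changed the counts. Without it, 28 members were positive and 43 negative, and at an unadjusted p under 0.05, 16 members had lower values in HLF KO (3.90% of all genes did) and 1, Rpl21, had higher values (1.78% of all genes, and 5.68% in either direction). The 16 were 10 large subunit genes (Rpl13, Rpl23a, Rpl24, Rpl32, Rpl36, Rpl37, Rpl37a, Rpl41, Rplp1 and Rplp2) and 6 small subunit genes, among them Rps15a, Rps16, Rps25, Rps28 and Rps29. Rpl37a then stood at -1.11 on the log2 scale and Rplp1 at -0.77. None of these 17 passed after adjustment over all genes (0 members, smallest edgeR adjusted p = 0.86). Without WT library 3, 9 members had higher values at that level (5.67% of all genes) and 2 lower (6.05%, with 11.7% in either direction), and the smallest edgeR adjusted p was 0.32. The higher ones were Rpl3, Rpl12, Rpl21, Rpl29, Rps2, Rps7, Rps12, Rps19 and Rpsa, and the lower ones Rplp1 and Rps15a. With any 1 of the other 4 libraries left out, 0 members reached an unadjusted p under 0.05. HLF KO library 3 and WT library 3 are the libraries with abundant Xist, so leaving out either leaves such a library in 1 genotype only, and WT library 3 also had the highest granulocyte-monocyte and B-cell marker sums. The part of donor sex and of these markers in the counts was not tested.

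Grouped by role, 0 genes in any list of members passed edgeR's adjusted test. In the stalk, the protrusion of the large subunit that binds translation factors, Rplp0 stood at 0.06 (SE 0.17) and Rpl12 at 0.33 on the log2 scale, while Rplp1 and Rplp2 stood at -0.45 and -0.34 (SE 0.28). These signs were the same under every alternative fit tried. Rpl5 and Rpl11, which bind the smallest rRNA of the large subunit and can hold back the p53 inhibitor Mdm2, stood at 0.13 (SE 0.17) and -0.08 (SE 0.22). Of 10 members listed for the peptide exit tunnel, 5 were tested, 4 of them positive, from -0.26 for Rpl23a to 0.22 for Rpl39. Only 2 of the 5 were positive without HLF KO library 3 or without WT library 1, and 3 with DESeq2. Of 8 listed for the mRNA channel of the small subunit, all were tested, with 4 positive and 4 negative values, and 3 to 5 positive under the alternative fits. Rps2 was the highest and Rps28 the lowest.

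Of 20 members listed as Diamond-Blackfan anaemia genes, 17 were tested, 8 with positive and 9 with negative values, a median of -0.03 and 0 at an unadjusted p under 0.05. Rps24 and Rps27, both thinly counted, are among the negative ones. The well-counted ones ran from -0.51 for Rps15a to 0.29 for Rps19, with Rpl18 at 0.24 (SE 0.23) and Rps10 at -0.03 (SE 0.22). Rpl26, Rpl31 and Rpl35a were not tested. The 4 X-linked members were all positive, Rpl39 at 0.22 (SE 0.19), Rpl10 at 0.13 (SE 0.16), Rpl36a at 0.09 (SE 0.18) and Rps4x at 0.03 (SE 0.17), and each interval includes 0. Rps4x turned negative when WT library 2, HLF KO library 1 or HLF KO library 3 was left out. In 3 of these X-linked genes the highest library was HLF KO library 3 and in Rps4x it was WT library 3, the libraries with abundant Xist. This was common among members, as HLF KO library 3 was the highest for 28 of all 66 well-counted ones and WT library 3 for 16. The part of donor sex in these values was not tested.

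Among relatives of core members, Rps4l was thinly counted, at 19.2, 28.0 and 6.09 CPM in WT and at 23.2, 5.09 and 13.8 CPM in HLF KO, with fully overlapping genotypes. Its relative Rps4x ranged from 4640.3 to 6016 CPM. Rpl3l, Rpl10l and Rpl39l were at 0, while Rpl3 ranged from 1853 to 2780.3 CPM, Rpl10 from 2571 to 3239 CPM and Rpl39 from 2062 to 3329.6 CPM. Rpl3l belongs to the class with several listed transcripts. These CPM are not per length, so no ratio between the genes is given. Rps27l stood at 226, 266 and 216 CPM in WT and at 195, 274 and 266 CPM in HLF KO. Its genotypes overlapped fully (log2 fold change 0.06, SE 0.24), while Rps27 itself could not be judged at 249 counts in total.

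Of 7 ribosomal protein genes that the symbol pattern leaves out, 6 were tested, with 3 positive and 3 negative values and 0 at an unadjusted p under 0.05. Rps3a1, a core protein of the small subunit, stood at 7547, 6742 and 4848 CPM in WT and at 4443, 4043 and 7455 CPM in HLF KO, high and low in the same libraries as Rpl37a. Its log2 fold change was -0.26 (SE 0.24). Rack1, a scaffold on the small subunit, stood at 0.27 (SE 0.19) and Rpl22l1, a relative of Rpl22, at -0.08 (SE 0.19). Fau, which encodes a small subunit protein as a fusion, was at 0, which is not read as low expression.

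Other genes of translation gave 0 calls in each of the following lists by edgeR's adjusted test. Of 9 tested elongation factors and partners with TOP mRNAs, 6 were positive (median 0.15), and of 11 tested eIF3 subunits 8 were positive (median 0.06), with 0 at an unadjusted p under 0.05 in both lists. Without WT library 1 the eIF3 subunits were 5 positive and 6 negative, and without WT library 2 the elongation factors and partners were 5 and 5. The smallest p values were those of Npm1 (0.80, SE 0.51, with higher values in every HLF KO library, but thinly counted and with several listed transcripts), Eef1g (0.25, SE 0.21) and Tpt1 (-0.20, SE 0.18) in the former. In the latter they were those of Eif3a (0.34, SE 0.20), Eif3e (-0.16, SE 0.21) and Eif3f (-0.15, SE 0.20).

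Among 10 tested genes of mTORC1 and its control of TOP mRNAs, 3 were positive and 7 negative (median -0.28), and 1 was lower in HLF KO at an unadjusted p under 0.05, where 4.65% of all genes were. This was Tsc1, an inhibitor of mTORC1, at 135, 142 and 87.5 CPM in WT and at 47.3, 53.2 and 70.3 CPM in HLF KO. Every HLF KO library was below every WT library, by -1.09 on the log2 scale (SE 0.36, edgeR adjusted p = 0.52). Eif4e, the cap-binding protein, stood at 0.55 (SE 0.28) and Rps6kb2, a kinase of Rps6, at -1.60 (SE 0.83), the latter with 302 CPM in WT library 1 and at most 63.6 CPM in any other.

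Of 9 listed transcription factors with known sites in ribosomal protein promoters, 8 were found in the data and 6 were tested. Myc was at 0 in every library, and Max did not pass the filter. As some core ribosomal protein genes were also at 0, these low counts are not read as low expression. All 6 tested were positive (median 0.25), though Yy1 was negative with DESeq2 and up to 3 were negative with 1 library left out. With no filter on low counts, Max was negative. Of the 6, 1 had higher values at an unadjusted p under 0.05, where 2.63% of all genes did. This was Mycn, a Myc family factor, at 52.0, 128 and 116 CPM in WT and at 192, 217 and 279.8 CPM in HLF KO. Its libraries did not overlap between genotypes, as those of 7.52% of all genes did not with higher values in HLF KO, and HLF KO minus WT was 1.22 on the log2 scale (SE 0.35, edgeR adjusted p = 0.47). Tbpl1 (0.49, SE 0.44) and Sp1 (0.15, SE 0.23) followed. A last list held chaperones, importers and assembly factors of ribosomal proteins, and also Mdm2 and Mdm4, which are none of these. Of its 11 tested genes 9 were positive (median 0.36) and 0 reached an unadjusted p under 0.05. Tsr1 stood at 1.15 (SE 0.57), Rrs1 at 0.93 (SE 0.56) and Mdm4 at -0.67 (SE 0.36).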

How the data were processed

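RNA sequencing of 3 WT and 3 HLF KO libraries was analysed. The authors' deposited tables give raw counts, 1 whole number for each of 30858 RefSeq transcripts. TopHat and build mm9 were used per the submitters' processing notes. The sources do not state the counting tool, annotation, strand or treatment of shared reads. Symbols came from a RefSeq table of assembly GRCm38.p6 (30363 transcripts) or GENCODE cross-references (179), and 316 stayed unnamed. Counts were summed per gene.

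All genes were fitted with edgeR 4.0.16 in R 4.3.3 (TMM factors, filterByExpr by genotype with a minimum count of 10 and total of 15, robust quasi-likelihood F test over 6 libraries, no covariates). P-values were Benjamini-Hochberg adjusted over 10204 genes. Standard errors and 95% intervals came from the F statistic. Log2 CPM used a prior count of 2. Principal components used gene-centred log2 CPM.

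Named were Hlf, the 5 members per subunit of smallest p, the 3 highest and lowest per kilobase, untested members, the 3 genes of smallest p in each other list, and members of the role lists, except a few genes that are not reported here. The line of 100 CPM, Rpl27a, Rpl7, Rps12, Rpl36 and the genes named without HLF KO or WT library 3 were chosen after seeing values. Members and lists were chosen with earlier results of these data known. The fit was also run on simulated data with larger changes than those of the well-counted members, and no result here rests on that run. Alternatives were DESeq2 1.42.0, limma-voom (limma 3.58.1), other scalings and filters, a replicate block and leaving out each library.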

Additional observations from a re-analysis of the deposited data

How the results depend on the processing

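No ribosomal protein gene and none of the other translation genes tested (0 each) passed an adjusted p under 0.05 under any of 16 alternatives. Through these, 11 genes were followed, which are Hlf and the 5 members of smallest p per subunit. Their log2 fold changes turned sign in 0 of 176 fits. These members were picked by small p with the settings of the report, which favours stable signs, and other members did turn sign. Rpl11, for example, ran from -0.38 to 0.08 on the log2 scale with 1 library left out. The count of calls over all genes was 1 with the settings of the report, 108 with DESeq2, 9 with no filter on low counts and 1 to 3 with 1 library left out. The fit with the replicate number as a block called 2 genes. Deviations of same-numbered libraries over all genes had correlations of -0.01, -0.02 and 0.02, and those of differently numbered ones ran from -0.04 to 0.05. With all of them this weak, the correlations cannot tell whether a number marks a pair. The labels do not say so either, and the settings of the report took the libraries as unpaired. Abundant Xist was in library 3 of both genotypes. The count of members at an unadjusted p under 0.05, which was 1, ran from 0 to 17 with 1 library left out, was 0 with DESeq2 or a minimum count of 50, 2 with no filter and 4 with limma-voom or when scaled to the ribosomal protein total, a scaling chosen after seeing the data. The median of all genes moved from -0.05 to 0.06 with limma-voom, and the median of small subunit genes lay at -0.05 with DESeq2 and 0.01 with total counts only, so its sign depends on the scaling. The median of large subunit genes turned to -0.06 without HLF KO library 3. The difference in ribosomal protein share, 0.021 percentage points, ran from -1.34 without HLF KO library 3 to 0.91 without HLF KO library 2, moves close to but under the SD within WT of 1.40, so 1 library sets its sign. Precision is limited by the spread between libraries, since every member of at least 100 CPM had 1775 or more counts in each library.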
